A study of Mus musculus with 6 samples.

Results

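Ppara, Ppargc1a, Cpt1a, Cpt2, Acadm, Hadha, Ehhadh and Acaa1b are genes of fatty acid oxidation, picked by gene symbol from the 33696 genes of the count tables, where all 8 were found. Single-cell RNA-seq was performed on kidney cells of 3 sham and 3 DOCA-salt mice, with 1 library from each mouse. All the mice were male C57BL/6 mice, bought at 8 to 10 weeks of age and older by the surgery and treatment time when the kidneys were taken. DOCA-salt mice lost the left kidney, received a pellet of 50 mg deoxycorticosterone acetate (DOCA) and drank 1% NaCl for 21 days. Sham mice were operated on without removal of the kidney, received no pellet and drank normal water. The loss of a kidney and the DOCA-salt treatment therefore separate the same mice and cannot be told apart, and each result below compares both together with sham.

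Fatty acids are the main fuel of the proximal tubule. Long-chain fatty acids enter mitochondria through the carnitine shuttle and are cut into acetyl-CoA by β-oxidation, while very long-chain and dicarboxylic fatty acids are first shortened in peroxisomes. The nuclear receptor PPARα, encoded by Ppara, binds fatty acids and turns on many of these enzymes, with PGC-1α, encoded by Ppargc1a, as a coactivator that also drives mitochondrial biogenesis.

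After filtering, 55630 cells were kept, with median counts of 4787 to 9148 UMIs (unique molecular identifiers, each counting 1 captured RNA molecule) per cell in the 6 mice. Clusters were named from marker genes, and 30864 cells fell into proximal clusters. These were S1-like cells (early proximal tubule), S2/S3-like cells, in which markers of the middle and late segments could not be separated, 251 S3-like cells and a cluster of low UMI counts. A cluster led by C3 and Wt1, with Havcr1, the gene of kidney injury molecule 1, among its 10 leading genes, was not named and stayed outside the proximal cells. The summed level of 8 proximal marker genes ranged from 31438 to 38881 CPM (counts of a gene scaled to an equal total of UMIs in each mouse and cell type) in sham and from 22335 to 34090 CPM in DOCA-salt proximal cells, which overlapped. The summed level of 6 injury markers was 5.39 to 6.42 CPM in sham and 30.8 to 46.4 CPM in DOCA-salt proximal cells. Fewer cells of a kind within a cluster and less RNA of a gene per cell cannot be told apart in such sums.

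On the mouse genome (build GRCm39), Ehhadh lies on chr16:21580036-21606563 and Acaa1b on chr9:118977091-118986161, both on the minus strand. Ppargc1a lies on the minus strand of chr5:51611592-51725068, where 3 predicted genes overlap it on the same strand. Reads of Acaa1b can be shared with its near-identical copy Acaa1a, so its values are uncertain. The 300 bases before the annotated start of the canonical transcript were searched for the DR1 element that PPARα binds with its partner RXR (AGGTCANAGGTCA, both strands, up to 2 mismatches among the 12 fixed bases). None of the 8 windows held such a match, and 3.46% of 21770 windows over all genes did. The windows of Ehhadh and Acaa1b, the peroxisomal members, overlap no annotated exon, and are shown because Ehhadh had the largest change of the 8 in proximal cells. Capitals mark the CCAAT box on either strand (CCAAT or ATTGG), which 40.5% of all windows held. It stands 59 bases before the start of Ehhadh, and the nearer of 2 boxes stands 38 bases before that of Acaa1b.
Ehhadh, chr16:21606564-21606863, minus strand: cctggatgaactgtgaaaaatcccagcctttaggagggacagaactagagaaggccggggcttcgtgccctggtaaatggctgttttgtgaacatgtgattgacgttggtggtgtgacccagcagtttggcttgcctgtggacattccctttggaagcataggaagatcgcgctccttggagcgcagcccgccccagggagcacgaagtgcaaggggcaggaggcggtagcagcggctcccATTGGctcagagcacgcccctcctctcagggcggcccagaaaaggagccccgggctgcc
Acaa1b, chr9:118986162-118986461, minus strand: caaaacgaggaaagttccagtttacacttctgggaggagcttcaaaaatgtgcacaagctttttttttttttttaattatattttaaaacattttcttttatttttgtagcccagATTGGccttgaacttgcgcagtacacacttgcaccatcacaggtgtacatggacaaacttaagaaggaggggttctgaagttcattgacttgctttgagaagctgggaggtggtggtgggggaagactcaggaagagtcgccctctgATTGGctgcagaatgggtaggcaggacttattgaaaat
The full cAMP response element TGACGTCA, in capitals below, was found in the window of Ppargc1a only among the 8 and in 1.75% of all windows. It begins 83 bases before the start, and is shown because Ppargc1a was called in 4 of the tubule types after the thick ascending limb. This window overlaps an annotated exon of Ppargc1a and lies within the span of the gene given above.
Ppargc1a, chr5:51711329-51711358, minus strand: ctgccttggagTGACGTCAggagtttgtgc

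Most UMIs of these genes lay in proximal cells, except those of Ppargc1a. In sham mice, proximal cells held 94.7% of all UMIs of Ehhadh, 93.1% of Acaa1b, 92.0% of Ppara, 79.9% of Acadm, 79.7% of Cpt2, 69.4% of Cpt1a, 57.8% of Hadha and 49.9% of Ppargc1a. Such shares follow the number of cells of each type as well as the level. The sham means of Ppargc1a, Cpt1a and Hadha were higher outside proximal cells, whose values are given below. They were 553, 211 and 170 CPM in the thick ascending limb and 569, 271 and 169 CPM in the distal convoluted tubule. Free RNA from broken cells contributes to low values outside proximal cells. Its share of the UMIs in the distal tubule types was estimated at 4.78 to 7.37% in sham and 3.35 to 4.28% in DOCA-salt mice on average. In the thick ascending limb and the segments after it, the level that free RNA would give was 73.4 to 107% of the observed level of Ehhadh and 70.6 to 107% of that of Acaa1b, and the values of both genes there are not read as expression. In the thin limb it was 125% in sham and 90.8% in DOCA-salt mice for Ehhadh, and 90.3 and 43.6% for Acaa1b. For Ppara it was 14.5 to 28.3% in the thick ascending limb and the distal convoluted tubule, 69.0% in sham and 64.2% in DOCA-salt connecting tubule cells, 96.9 and 47.2% in principal cells and 38.2 and 18.1% in intercalated cells. The same estimate reached at most 3.40% of the Ppargc1a level in the thick ascending limb and the segments after it.

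In proximal cells as a whole, Ehhadh rose, and it was the 1 member that passed the test. Ehhadh encodes the peroxisomal bifunctional enzyme, which carries out the middle steps of the peroxisomal pathway. Its level was 151, 178 and 239 CPM in the sham mice and 444, 494 and 282 CPM in the DOCA-salt mice, so that every DOCA-salt mouse stood above every sham mouse. The means were 189 ± 45.0 and 406 ± 111 CPM (SD, n = 3 each). The log2 change was 1.04 with a standard error of 0.242 and an adjusted p of 0.0373 (edgeR quasi-likelihood test, Benjamini-Hochberg over 16134 genes). Among the 8 members 1 was thus called higher and 0 lower, beside 5.0% of all tested genes higher and 2.23% lower. Those shares stand for 807 and 360 genes, against 224 and 49 with a replicate block, 255 and 52 without DOCA-salt mouse 3, and 1445 and 1271 without sham mouse 2. The call depended on which mice were included. The log2 change ran from 0.87 to 1.26 when each mouse was left out in turn, and the adjusted p passed 0.05 without sham mouse 1 (0.107), DOCA-salt mouse 1 (0.109) or DOCA-salt mouse 2 (0.116). With the unnamed C3-led cluster and the cycling tubule cluster added, the log2 change was 0.88 with an adjusted p of 0.0556.

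The enzymes of the shuttle and of mitochondrial β-oxidation had smaller log2 changes than Ehhadh. Cpt2, the inner carnitine palmitoyltransferase, was 53.9, 50.5 and 57.1 CPM in sham and 71.1, 69.0 and 62.9 CPM in DOCA-salt proximal cells. Hadha, the α subunit of the trifunctional protein, was 101, 99.5 and 103 CPM in sham and 127, 138 and 119 CPM in DOCA-salt proximal cells. For both genes the DOCA-salt mice lay above all sham mice, at log2 changes of 0.27, with 95% intervals from 0.06 to 0.47 for Cpt2 and from 0.07 to 0.47 for Hadha. Neither passed the test after adjustment (adjusted p of 0.155 for Cpt2 and 0.142 for Hadha). Hadhb, the partner subunit of Hadha, overlapped between the groups, at 108 ± 10.6 CPM in sham and 112 ± 16.2 CPM in DOCA-salt mice. Cpt1a, which makes acylcarnitines at the outer membrane, measured 127, 132 and 150 CPM in sham and 143, 129 and 124 CPM in DOCA-salt mice. Acadm, the medium-chain acyl-CoA dehydrogenase, measured 377, 415 and 339 CPM in sham and 389, 315 and 362 CPM in DOCA-salt mice. The groups overlapped for Cpt1a and Acadm, with 95% intervals of the log2 change from -0.35 to 0.13 and from -0.40 to 0.11.

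The regulators did not differ detectably in all proximal cells. Ppara was 99.5, 132 and 110 CPM in sham and 117, 119 and 96.9 CPM in DOCA-salt mice, with a 95% interval of the log2 change from -0.38 to 0.18. Ppargc1a was 187, 188 and 180 CPM in sham and 200, 185 and 178 CPM in DOCA-salt mice, with an interval from -0.24 to 0.16. The groups overlapped for both. Acaa1b, a thiolase of the last peroxisomal step, spread widest among sham mice, at 434, 230 and 559 CPM, against 403, 446 and 275 CPM in DOCA-salt mice. The groups overlapped, and the 95% interval of the log2 change ran from -0.77 to 0.41.

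Ehhadh rose in both larger segments, and 1 further member passed the test in each. In S1-like cells, Ehhadh was 88.2, 85.5 and 132 CPM in sham and 202, 257 and 167 CPM in DOCA-salt mice, a log2 change of 1.00 (adjusted p = 0.0308). Cpt2 was 33.7, 31.3 and 35.8 CPM in sham and 48.8, 50.1 and 45.3 CPM in DOCA-salt S1-like cells, a log2 change of 0.48 (adjusted p = 0.0334). Both rose, so that 2 of 8 members were called higher and 0 lower in S1-like cells, against 3.0% and 1.32% of all tested genes. In S2/S3-like cells, Ehhadh was 214, 283 and 380 CPM in sham and 690, 890 and 451 CPM in DOCA-salt mice, a log2 change of 1.14 (adjusted p = 0.0257). Hadha was 103, 108 and 104 CPM in sham and 144, 170 and 134 CPM in DOCA-salt S2/S3-like cells, a log2 change of 0.45 (adjusted p = 0.0333). Ehhadh and Hadha rose, so that 2 of 8 members were called higher and 0 lower there, against 7.42% and 4.55% of all tested genes. Hadha in S1-like cells and Cpt2 in S2/S3-like cells were also higher in every DOCA-salt mouse than in every sham mouse, but were not called. These 4 calls are of limited stability. Leaving out each mouse in turn kept 2 of 6 fits of Ehhadh past the threshold in S1-like cells, 3 of 6 in S2/S3-like cells, and 1 of 6 for Cpt2 and for Hadha. No call was left in either segment without sham mouse 1, DOCA-salt mouse 1 or DOCA-salt mouse 2, while 2 were left without sham mouse 3 and 1 without DOCA-salt mouse 3.

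**Figure D1:**
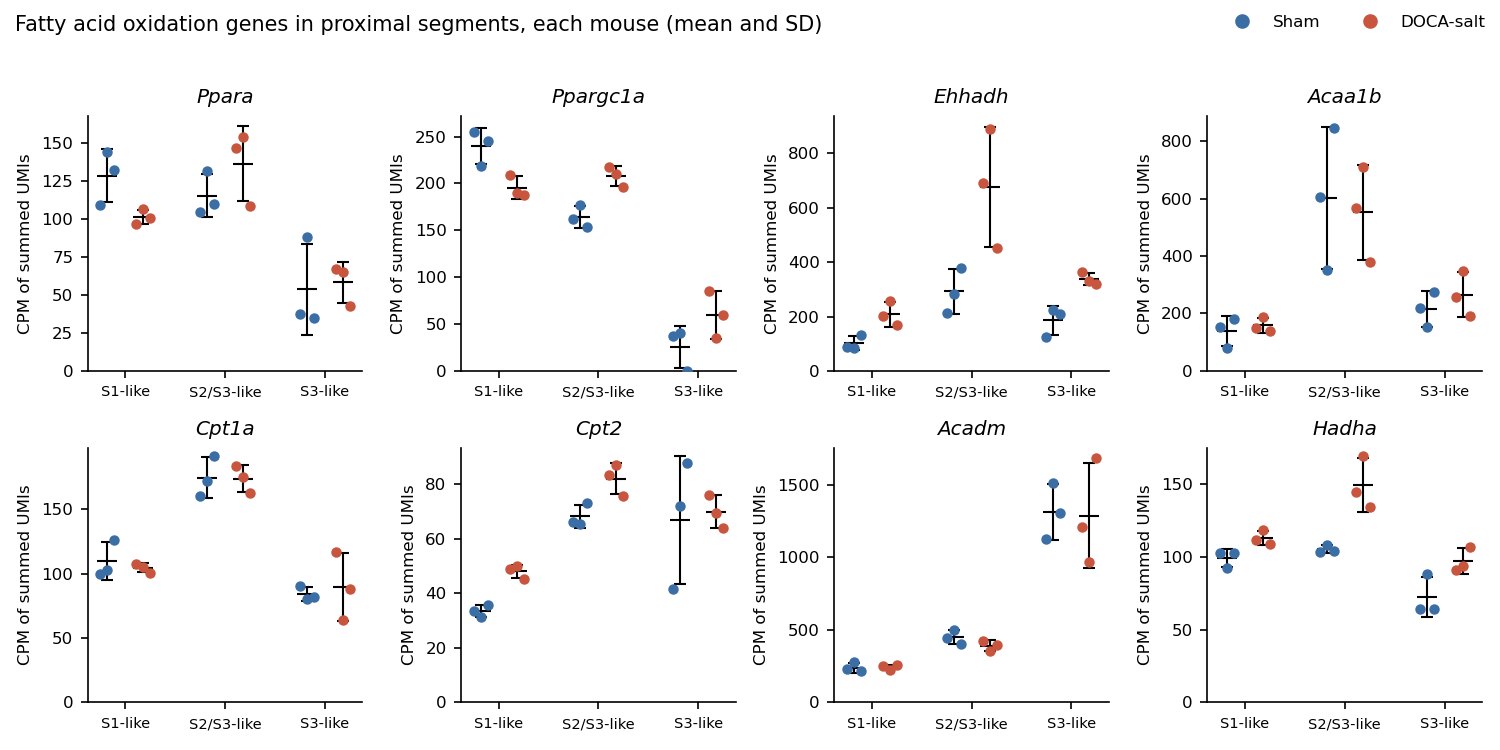
Levels of the 8 members in S1-like, S2/S3-like and S3-like cells, in CPM of the UMIs summed in each mouse, with 1 point for each of the 3 sham and 3 DOCA-salt mice and black bars for the mean and SD. The Ehhadh points separate by group in each segment, as from 214 to 380 CPM in sham and from 451 to 890 CPM in DOCA-salt S2/S3-like cells, while those of Cpt1a and Acadm overlap.

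The changes of both regulators differed between the 2 segments in a test of that difference. In S1-like cells Ppargc1a was 255, 218 and 246 CPM in sham and 209, 190 and 188 CPM in DOCA-salt mice, and all DOCA-salt mice were lower (log2 change -0.33, adjusted p = 0.137). In S2/S3-like cells Ppargc1a was 162, 177 and 153 CPM in sham and 218, 210 and 196 CPM in DOCA-salt mice, and all DOCA-salt mice were higher (log2 change 0.29, adjusted p = 0.115). Neither change passed the threshold alone. The difference between the segments, S2/S3-like minus S1-like, was 0.62 with an adjusted p of 4.1e-05 (edgeR interaction term with the mouse as a block). Ppara was 109, 144 and 132 CPM in sham and 96.7, 106 and 101 CPM in DOCA-salt S1-like cells, which did not overlap (log2 change -0.39, adjusted p = 0.161). In S2/S3-like cells it was 104, 131 and 110 CPM in sham and 147, 154 and 108 CPM in DOCA-salt mice, which overlapped (log2 change 0.19, adjusted p = 0.447). The segments differed for Ppara by 0.56 (adjusted p = 0.00105). Both differences kept adjusted p under 0.05 with any single mouse left out. The clusters behind the S2/S3-like sums were not alike. In the one of low mitochondrial share (a median of 9.88%), Ppargc1a was 235, 280 and 228 CPM in sham and 341, 320 and 338 CPM in DOCA-salt mice, which did not overlap, and the ratio of the means was 1.34 for Ppargc1a and 1.30 for Ppara, whose groups overlapped. In the other S2/S3-like clusters (29.0 and 25.2%), Ppargc1a overlapped at ratios of 0.945 and 0.995, and Ppara was lower in every DOCA-salt mouse, at 0.728 and 0.849. In the S1-like clusters the ratios lay between 0.829 and 0.920 for Ppargc1a and between 0.743 and 0.931 for Ppara, so the higher levels in S2/S3-like cells stood in 1 of the 3 clusters. Smaller differences of the same kind were called for Hadha (0.30, adjusted p = 0.010), Cpt2 (-0.27, 0.0175), Acaa1b (-0.37, 0.0254) and Acadm (-0.25, 0.0318). In all, 6 of 8 members differed between the segments, beside 15.7% of all tested genes, and the 4 smaller differences were each lost with 2 to 5 of the 6 mice left out in turn. The summed level of the S3 markers was 1492 to 2318 CPM in sham and 1173 to 1295 CPM in DOCA-salt S2/S3-like cells, and that of the S1 markers was 1570 to 2377 and 2642 to 3136 CPM, so the make-up of these clusters moved with the group and its part in the result was not tested. At a finer clustering (Leiden resolution 2), an S1-like cluster had C3 and the injury gene Spp1 among its leading genes. That cluster held 7, 7 and 13 sham cells and 170, 265 and 351 DOCA-salt cells, and its part in the S1-like changes was not tested.

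**Figure D2:**
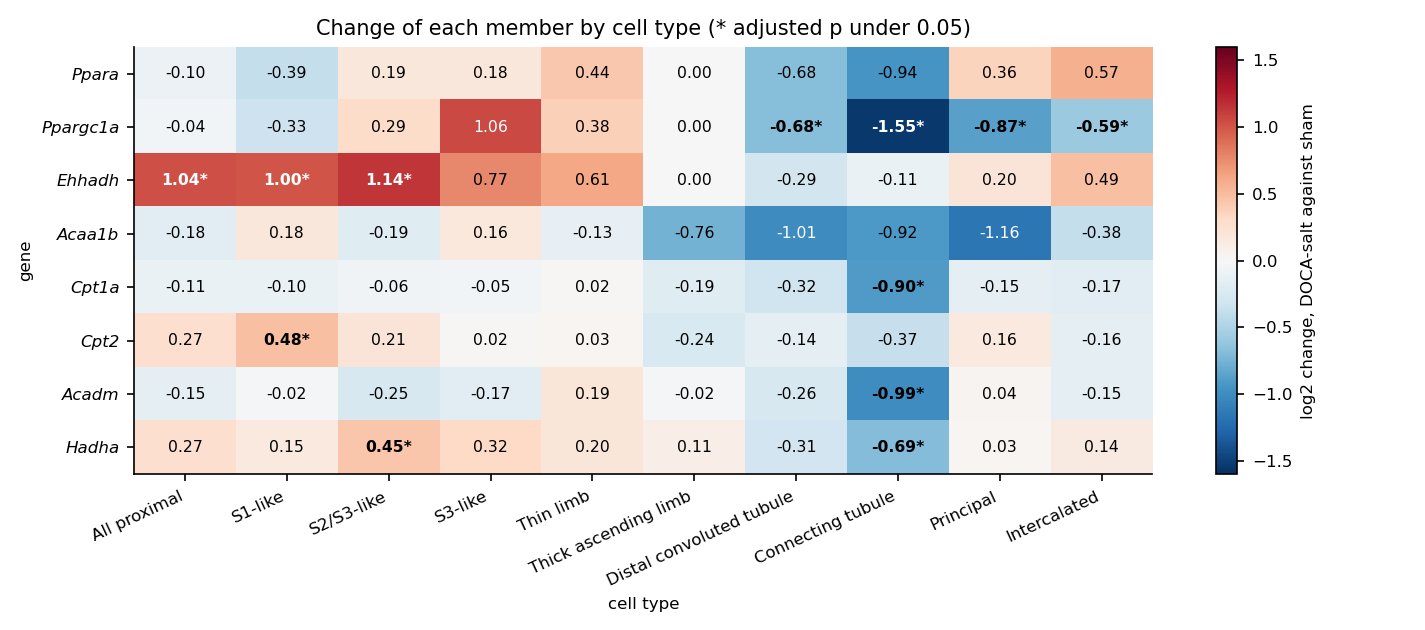
Log2 change between DOCA-salt and sham mice of each member (vertical axis) in each tubule type (horizontal axis), as a number and a colour, with an asterisk for an adjusted p under 0.05 (3 mice in each group). Ehhadh lies at 1.00 in S1-like and 1.14 in S2/S3-like cells, and Ppargc1a runs from 1.06 in the few S3-like cells, where it was not called, to -1.55 in connecting tubule cells.

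The log2 change of Ehhadh was larger in proximal cells with low mitochondrial shares. The share of a cell's UMIs from mitochondrial genes varies with cell state and with damage during dissociation. In proximal cells with at most 20% mitochondrial UMIs, the log2 change of Ehhadh was 1.27 (adjusted p = 0.0138), and in those with 20 to 50% it was 0.31 (adjusted p = 0.588). The difference, 0.95, passed the interaction test (adjusted p = 0.00012) and did so with any single mouse left out. In S1-like cells at or under 20%, Ehhadh was 123, 140 and 194 CPM in sham and 392, 552 and 334 CPM in DOCA-salt mice, which did not overlap. In S1-like cells above 20% it was 57.4, 66.0 and 92.2 CPM in sham and 98.6, 83.0 and 65.6 CPM in DOCA-salt mice, which overlapped. The S2/S3-like cells at or under 20% held 259, 362 and 519 CPM in sham and 976, 1315 and 666 CPM in DOCA-salt mice. Ppara differed likewise between the 2 classes of cells by 0.44 (adjusted p = 0.0033), from a log2 change of 0.08 in the low to -0.39 in the high class, neither of which passed the test alone. These were 2 of 8 members, beside 1.98% of all tested genes.

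Among the 8 proximal clusters, the ratios of DOCA-salt to sham means of Ehhadh were highest in the 2 with the lowest mitochondrial shares. In the low-mitochondrial S1-like cluster, with a median mitochondrial share of 8.99%, Ehhadh was 151, 171 and 231 CPM in sham and 571, 770 and 470 CPM in DOCA-salt mice. In the S2/S3-like cluster with a median share of 9.88%, it was 282, 401 and 551 CPM in sham and 1066, 1403 and 780 CPM in DOCA-salt mice. The largest S1-like cluster, with a median share of 29.0%, held 67.8, 73.2 and 101 CPM in sham and 96.8, 92.1 and 82.6 CPM in DOCA-salt mice. The groups were thus apart in the first and second of these clusters, at 3.28 and 2.63 times the sham mean, and overlapped in the last, at 1.12 times. The other S1-like cluster, with a median share of 27.4%, also had every DOCA-salt mouse above every sham mouse, at 24.5, 32.8 and 45.3 CPM in sham and 67.1, 46.9 and 45.7 CPM in DOCA-salt mice, 1.56 times the sham mean. The groups did not overlap in the S3-like cluster either (21.6%, 1.81 times), and overlapped in the other S2/S3-like clusters (29.0%, 1.37 times, and 25.2%, 1.17 times) and in the cluster of low UMI counts (23.8%, 1.61 times). Ehhadh was itself among the 10 leading genes of the S2/S3-like cluster of low mitochondrial share. Whether the high-mitochondrial cells are a cell state of the kidney or cells damaged in preparation was not tested.

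**Figure D3:**
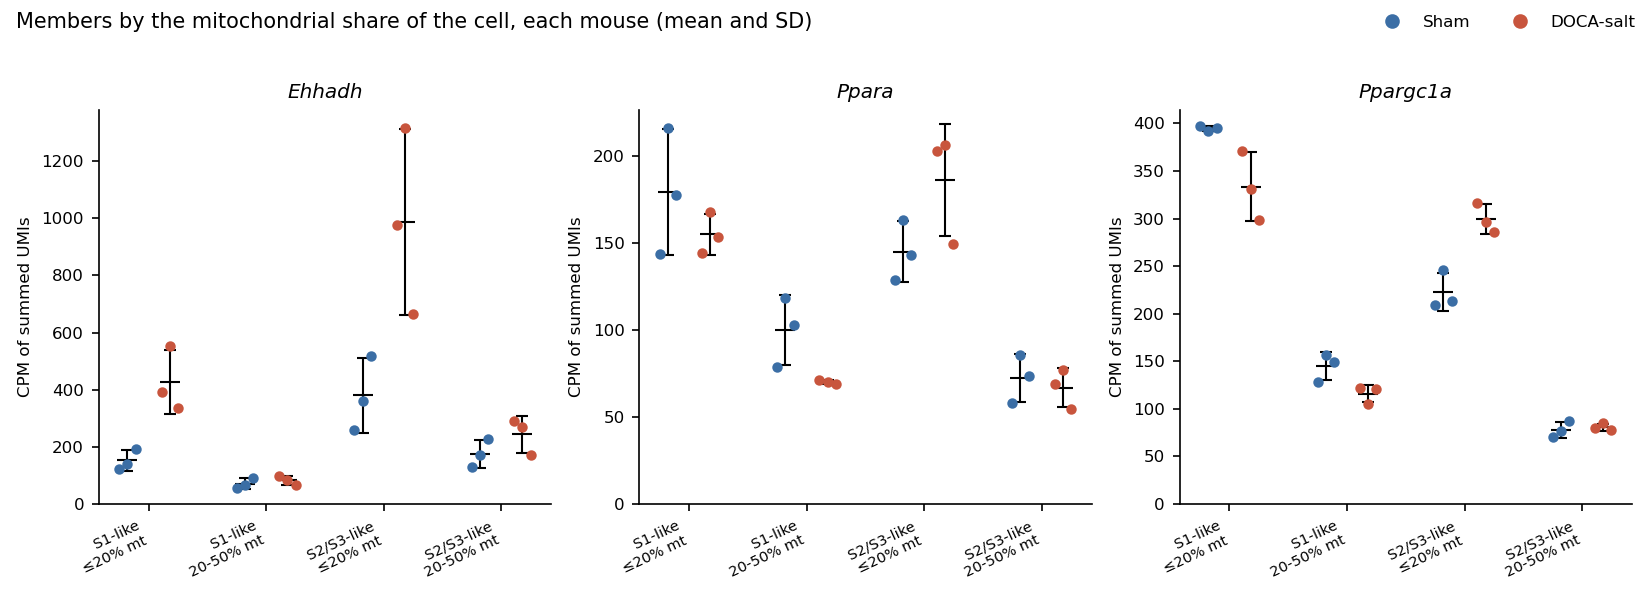
Levels of Ehhadh, Ppara and Ppargc1a in S1-like and S2/S3-like cells split by mitochondrial share, in CPM of the UMIs summed in each mouse, with 1 point for each of the 3 sham and 3 DOCA-salt mice and black bars for the mean and SD. Ehhadh separates by group in cells with at most 20% mitochondrial UMIs, as in S1-like cells at 123 to 194 against 334 to 552 CPM, and overlaps in those with 20 to 50%.

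The number of cells with the RNA was compared at equal depth, after each cell was thinned to 1000 UMIs and shallower cells (2730 sham and 2369 DOCA-salt) were left out. Ehhadh was then detected in 12.6 ± 2.41% of sham and 19.5 ± 3.90% of DOCA-salt proximal cells, which overlapped (exact permutation test over mice, two-sided p = 0.2). The share among T or NK cells, which should lack it, was 1.68% in sham and 2.31% in DOCA-salt mice. Cpt2 was detected in 5.11 ± 0.148% and 6.78 ± 0.532%, and Hadha in 9.14 ± 0.170% and 11.4 ± 0.801%, of sham and DOCA-salt proximal cells. Those 2 members did not overlap, with an exact p of 0.1, the smallest that 3 against 3 mice allow. Adjusted over the 8 members, this p was 0.4 for both, and how many of all genes did not overlap was not counted. Among T or NK cells of sham and DOCA-salt mice, Cpt2 was detected in 1.42 and 1.25% and Hadha in 8.26 and 7.59%.

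In the segments after the thick ascending limb, Ppargc1a was the member that fell most often. It fell in the distal convoluted tubule, the connecting tubule, principal cells and intercalated cells, and in these segments no other member passed the test outside the connecting tubule. In the distal convoluted tubule all 8 members had negative log2 changes (median -0.32, beside -0.01 over all tested genes), and Ppara (adjusted p = 0.0773) and Cpt1a (0.232) were lower in every DOCA-salt mouse. Among the 8, Ehhadh and Acaa1b are not read as expression there, and Cpt2 and Ehhadh each changed sign in 3 alternative fits. With counts scaled by library size only, the median of all tested genes in this type was 0.14. Ppara was called lower there without sham mouse 2. In distal convoluted tubule cells Ppargc1a was 550, 589 and 569 CPM in sham and 385, 396 and 401 CPM in DOCA-salt mice, a log2 change of -0.68 (adjusted p = 0.0091). In connecting tubule cells it was 737, 664 and 646 CPM in sham and 295, 268 and 232 CPM in DOCA-salt mice, a log2 change of -1.55 (adjusted p = 7.2e-06). In principal cells, the salt and water transporting cells of the collecting duct, it was 374, 372 and 387 CPM in sham and 232, 189 and 179 CPM in DOCA-salt mice, a log2 change of -0.87 (adjusted p = 0.0030). In the acid-base transporting intercalated cells it was 530, 641 and 570 CPM in sham and 322, 335 and 467 CPM in DOCA-salt mice, a log2 change of -0.59 (adjusted p = 0.0418). In the thick ascending limb it was 526, 559 and 575 CPM in sham and 476, 564 and 654 CPM in DOCA-salt mice, and the groups overlapped (95% interval of the log2 change from -0.28 to 0.28). In each of the 4 types in which it fell, all DOCA-salt mice were below all sham mice.

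Each fall of Ppargc1a differed from its change in the thick ascending limb in the interaction test. The difference was -0.66 in the distal convoluted tubule (adjusted p = 0.000103), -1.50 in the connecting tubule (1.2e-06), -0.85 in principal cells (0.0019) and -0.60 in intercalated cells (0.00014). All 4 differences kept adjusted p under 0.05 with any single mouse left out. Of the 8 members, 1 was called lower and 0 higher in the distal convoluted tubule (2.95% and 4.79% of all tested genes), in principal cells (3.22% and 3.93%) and in intercalated cells (3.35% and 3.4%). The calls within the types were less even, since that in the distal convoluted tubule was lost without DOCA-salt mouse 1 or 3 and that in intercalated cells without sham mouse 1 or 3 or DOCA-salt mouse 1 or 2. With the type given to each cell from its own markers, the call held in principal cells (log2 change -1.11, adjusted p = 0.00147), and was lost in the distal convoluted tubule (-0.49, 0.0747) and in intercalated cells (-0.54, 0.101). In cells with 20 to 50% mitochondrial UMIs all 3 were lost, at -0.50 (adjusted p = 0.0928) in the distal convoluted tubule, -0.60 (0.503) in principal and -0.42 (0.129) in intercalated cells. The intercalated cells came from 2 clusters. In the larger, Ppargc1a was 539, 651 and 576 CPM in sham and 291, 265 and 354 CPM in DOCA-salt mice, and in the other it was 511, 609 and 557 CPM against 380, 419 and 599 CPM, which overlapped.

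In the connecting tubule 3 enzymes fell together with Ppargc1a. Acadm was 165, 179 and 162 CPM in sham and 114, 74.2 and 103 CPM in DOCA-salt mice, a log2 change of -0.99 (adjusted p = 0.00055). Cpt1a was 140, 168 and 180 CPM in sham and 116, 95.01 and 84.3 CPM in DOCA-salt mice, a log2 change of -0.90 (adjusted p = 0.0010). Hadha was 143, 143 and 180 CPM in sham and 101, 109 and 121 CPM in DOCA-salt mice, a log2 change of -0.69 (adjusted p = 0.0057). All DOCA-salt mice were below all sham mice for the 4 genes, each call held with any single mouse left out, and 4 of 8 members were called lower and 0 higher, against 11.8% and 11.9% of all tested genes. Against the thick ascending limb, the changes of the 4 genes also differed, by -0.95 for Acadm (adjusted p = 5.3e-05), -0.79 for Hadha (0.00046) and -0.67 for Cpt1a (0.0049), beside 16.2% of all tested genes. Hadhb, named here after its values were seen as the partner subunit of Hadha, was 188, 159 and 194 CPM in sham and 95.4, 97.8 and 81.8 CPM in DOCA-salt connecting tubule cells (log2 change -1.15, adjusted p = 0.000113).

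The connecting tubule cells of the groups also differed in other ways. They numbered 148, 186 and 241 in the sham and 107, 92 and 103 in the DOCA-salt mice. The summed level of 7 principal cell markers was 5866 to 7834 CPM in sham and 1900 to 2278 CPM in DOCA-salt mice, and that of the 6 injury markers was 5.9 to 12.3 and 313 to 501 CPM. The mitochondrial share of all UMIs was 22.2 to 23.9% in sham and 16.1 to 17.1% in DOCA-salt mice. The part of these in the falls was not tested, and a change in the mix of cells within the cluster and a change per cell cannot be told apart. With the type given to each cell from its own markers, without clusters, the log2 change in connecting tubule cells was -1.08 for Ppargc1a (adjusted p = 0.0018), while Acadm (-0.49, 0.051), Cpt1a (-0.44, 0.132) and Hadha (-0.38, 0.174) no longer passed. In cells with 20 to 50% mitochondrial UMIs, Ppargc1a fell by 0.93 on the log2 scale (adjusted p = 0.0113), and the log2 change was -0.49 for Acadm, -0.46 for Hadha and -0.07 for Cpt1a, none of which passed. In principal cells, the marker sum of the connecting tubule was 954 to 1228 CPM in sham and 1776 to 2609 CPM in DOCA-salt mice, and in distal convoluted tubule cells the mitochondrial share was 33.2 to 34.5% and 24.5 to 27.5%.

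At equal depth the share of cells with Ppargc1a moved with its level. In connecting tubule cells thinned to 1000 UMIs it was detected in 40.6, 42.0 and 41.7% of the cells of the sham mice and in 24.8, 21.5 and 21.7% of those of the DOCA-salt mice. In principal cells the shares were 26.6, 27.6 and 29.0% in sham and 19.7, 17.0 and 15.1% in DOCA-salt mice. The groups did not overlap in either type, with an unadjusted exact permutation p of 0.1 each, the smallest that 3 against 3 mice allow.

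**Figure D4:**
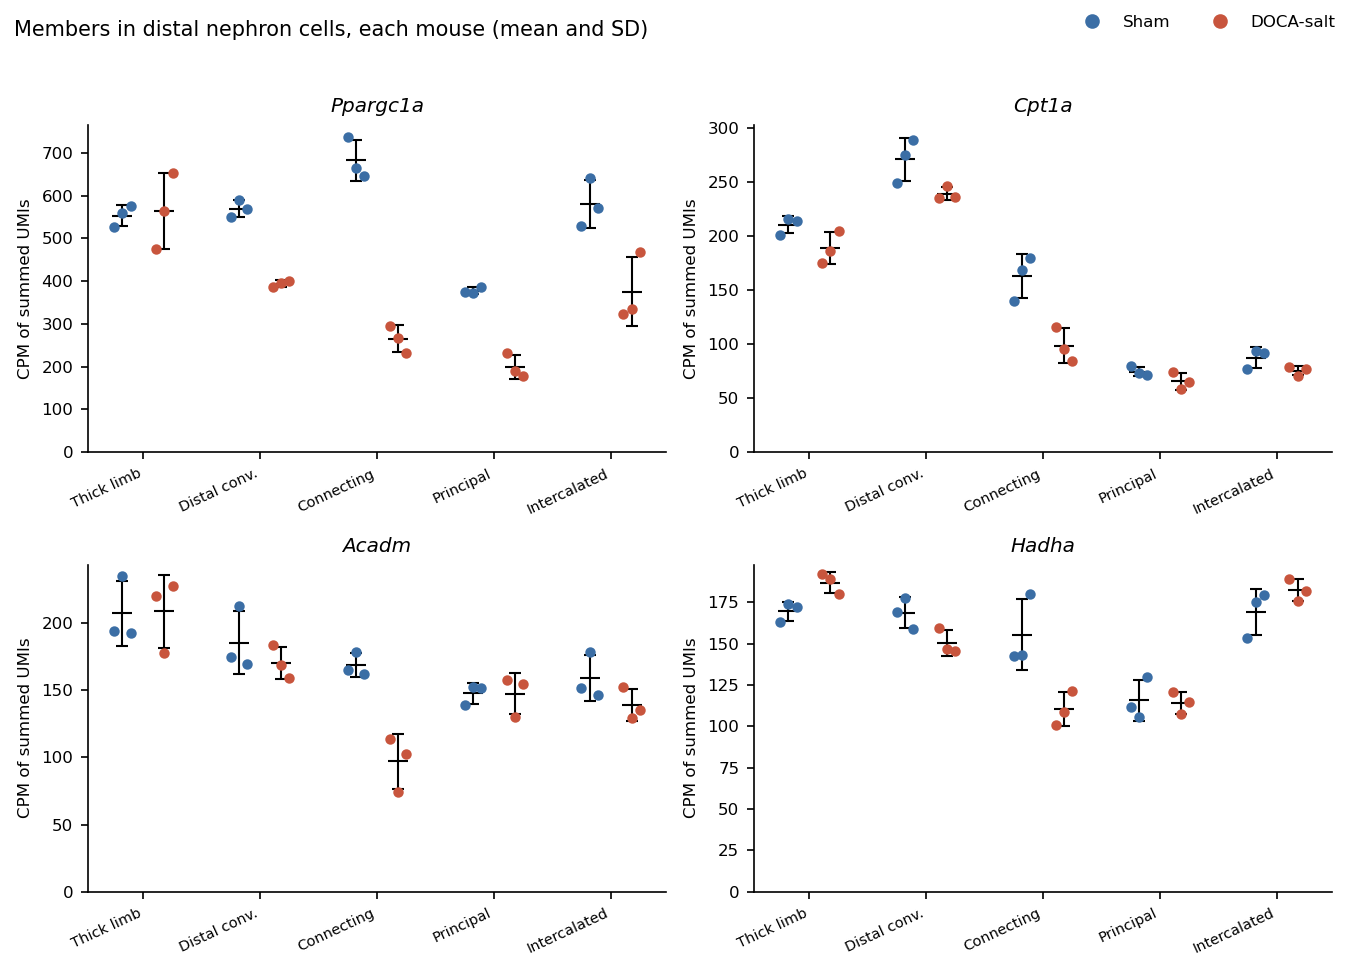
Levels of Ppargc1a, Cpt1a, Acadm and Hadha in thick ascending limb, distal convoluted tubule, connecting tubule, principal and intercalated cells, in CPM of the UMIs summed in each mouse, with 1 point for each of the 3 sham and 3 DOCA-salt mice and black bars for the mean and SD. Ppargc1a is lower in all DOCA-salt mice in the 4 last types, as at 232 to 295 against 646 to 737 CPM in the connecting tubule, and overlaps in the thick ascending limb.

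No member was called in the thick ascending limb (2.02% of tested genes higher and 1.43% lower), the thin limb (0.393% and 0.196%) or the S3-like cells (0.26% and 0.13%) by edgeR with the filter on low counts or by DESeq2. Without that filter edgeR called Ehhadh in S3-like cells and Acaa1b in the thick ascending limb, and Acaa1b was also called there without sham mouse 2. In the thick ascending limb Hadha was 163, 174 and 172 CPM in sham and 192, 189 and 180 CPM in DOCA-salt mice. Cpt2 was 27.2, 24.8 and 25.8 CPM against 24.4, 22.8 and 19.7 CPM. Neither overlapped, in opposite directions, and differences from this type include these shifts. How many of all genes did not overlap was not counted. At an unadjusted p under 0.05, 0 members stood out in the thick ascending limb, 1 in the thin limb (Ppargc1a) and 1 in S3-like cells (Ehhadh). Of all tested genes, 1731 of 12193 did so in the thick ascending limb. The counts were 1252 of 11706 in the thin limb and 421 of 4608 in S3-like cells. The 251 S3-like cells numbered 22, 11 and 17 in the sham and 83, 74 and 44 in the DOCA-salt mice, so that the sham levels of Ehhadh rest on 33, 28 and 36 UMIs. In these cells Ehhadh was 124, 224 and 210 CPM in sham and 363, 330 and 321 CPM in DOCA-salt mice, which did not overlap (log2 change 0.77, adjusted p = 0.298). Acadm reached 1127, 1513 and 1304 CPM in sham and 1210.3, 970.5 and 1685 CPM in DOCA-salt S3-like cells, which overlapped, and every mouse stood above the 355 to 502 CPM of Acadm in S2/S3-like cells. Ppargc1a was at 37.7, 40.0 and 0 CPM in the sham and 85.5, 34.7 and 59.4 CPM in the DOCA-salt mice there, and its difference from the S1-like change (1.57, adjusted p = 0.0058, 1 of 8 members beside 1.69% of genes) rested on these few cells and was lost without sham mouse 3 or DOCA-salt mouse 1. The rise of Ehhadh in proximal cells exceeded its change in the thick ascending limb by 1.10 (adjusted p = 0.0024) and that of Cpt2 by 0.54 (adjusted p = 0.0138), 2 of 8 members beside 5.85% of tested genes. The Ehhadh difference was 0.36 (adjusted p = 0.300) with types from each cell's own markers and 0.25 (adjusted p = 0.418) without doublet removal, and its level in the thick ascending limb was about that of free RNA. The Cpt2 difference was lost without sham mouse 1, DOCA-salt mouse 1 or DOCA-salt mouse 2. Distal convoluted tubule cells also differed from the thick ascending limb for Hadha (-0.41, adjusted p = 0.0435, lost in 5 of 6 fits with a mouse left out), 2 of 8 members with Ppargc1a beside 5.16% of tested genes. Intercalated cells differed for Ppara, at the free RNA shares given above (0.56, adjusted p = 0.038, lost in 5 of 6 such fits), 2 of 8 members with Ppargc1a beside 10.3%, and principal cells for Ppargc1a alone, beside 6.12%. Over all tubule cells summed, Ehhadh was higher by a log2 change of 1.01 (adjusted p = 0.0325), the 1 member called higher beside 4.22% of genes, with 0 called lower beside 2.24%. That call too was lost without sham mouse 1, DOCA-salt mouse 1 or DOCA-salt mouse 2.

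The other genes of the pathway were taken from lists of textbook members, chosen with earlier results of these data known. In proximal cells, 5.0% of all tested genes were called higher and 2.23% lower. Counted in either direction, the called share lay above that of all genes in most lists, each of few genes. It lay below in those of mitochondrial β-oxidation, the carnitine shuttle and the tricarboxylic acid cycle. Of 21 tested genes of mitochondrial β-oxidation, 1 fell and 0 rose, with a median log2 change of -0.14, beside -0.02 over all tested genes. Of 8 tested genes of the carnitine shuttle, 0 passed in either direction (median 0.09), with 0 at an unadjusted p under 0.05 by edgeR. Of all 16134 tested genes, 3893 had an unadjusted p under 0.05. Of 21 of the peroxisomal β-oxidation list, which also holds genes of α-oxidation, peroxisome assembly and catalase, 2 fell and 2 rose (median -0.09). Among those called, Phyh and Hacl1 belong to α-oxidation. Of 19 of fatty acid uptake and activation, 2 fell and 2 rose (median -0.07). Of 28 regulators, 2 fell and 1 rose (median -0.03), of 7 ketone body genes 1 fell and 1 rose (median -0.14), and of 21 genes of the tricarboxylic acid cycle 0 passed by edgeR (median -0.15), with Mdh2 alone at an unadjusted p under 0.05. Of 18 genes of fatty acid synthesis and storage, 0 fell and 2 rose (median 0.08), and of 14 of glycolysis, 1 fell and 2 rose (median -0.24). Of 22 PPAR target genes outside β-oxidation, 6 rose and 3 fell (median 0.34), and 9 of 14 tubular injury genes rose with 0 fallen (median 1.81).

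The PPAR targets that rose were Pdk4, Acot1, Acot2, Acot3, Vnn1 and Ucp2. Pdk4, the kinase that shuts off pyruvate dehydrogenase, was 177, 237 and 168 CPM in sham and 540, 378 and 344 CPM in DOCA-salt proximal cells (log2 change 1.06, adjusted p = 0.0192). Acot1, a cytosolic acyl-CoA thioesterase, was 41.4, 30.4 and 41.2 CPM in sham and 104, 86.6 and 61.2 CPM in DOCA-salt mice (log2 change 1.10, adjusted p = 0.0149). Its close copy Acot2 rose by a log2 change of 0.76, and reads of the 2 can be shared. Vnn1, a pantetheinase, rose by 0.81 and Ucp2, an uncoupling protein of the inner mitochondrial membrane, by 1.31 on the log2 scale. Acot3, a peroxisomal acyl-CoA thioesterase below the 20 CPM set for named genes, rose by 1.11. The 3 PPAR targets that fell were Cyp4a12a, Cyp4a12b and Cyp4a32. Like Acot1 and Acot2, these have close copies with which reads can be shared.

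Other pathway genes moved in both directions. Hacl1, of peroxisomal α-oxidation, rose by 0.67 and Acox2, an oxidase of branched fatty acids and bile acid intermediates, by 0.49, while Amacr, a racemase of branched fatty acids, fell by 0.74 and Phyh, the phytanoyl-CoA hydroxylase, fell by 0.51 on the log2 scale. Acads, the short-chain acyl-CoA dehydrogenase, was 172, 131 and 170 CPM in sham and 98.7, 107 and 91.5 CPM in DOCA-salt mice (log2 change -0.73, adjusted p = 0.0137). Acsm3, a medium-chain acyl-CoA synthetase, had the largest fall among the named genes, those of at least 20 CPM, from 67.6, 59.5 and 79.1 CPM to 32.2, 17.7 and 27.2 CPM (log2 change -1.48, adjusted p = 0.0058). Cd36, a fatty acid transporter, fell by 0.89. Of the regulators, Klf15, a transcription factor of fuel metabolism, fell by 0.54 and Sirt1, a deacetylase that acts on PGC-1α, fell by 0.51, while Nrip1, a nuclear receptor corepressor, rose by 0.48. Slc16a1, which carries lactate and ketone bodies, rose by 0.88, Elovl6, a fatty acid elongase, by 0.48 and Spp1, the gene of osteopontin, by 2.43. Leaving Acot3 aside, these were 18 genes, of which Acsm3, Spp1 and Acot1 kept adjusted p under 0.05 with any single mouse left out, and the other 15 lost it without at least 1 mouse.

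**Figure D5:**
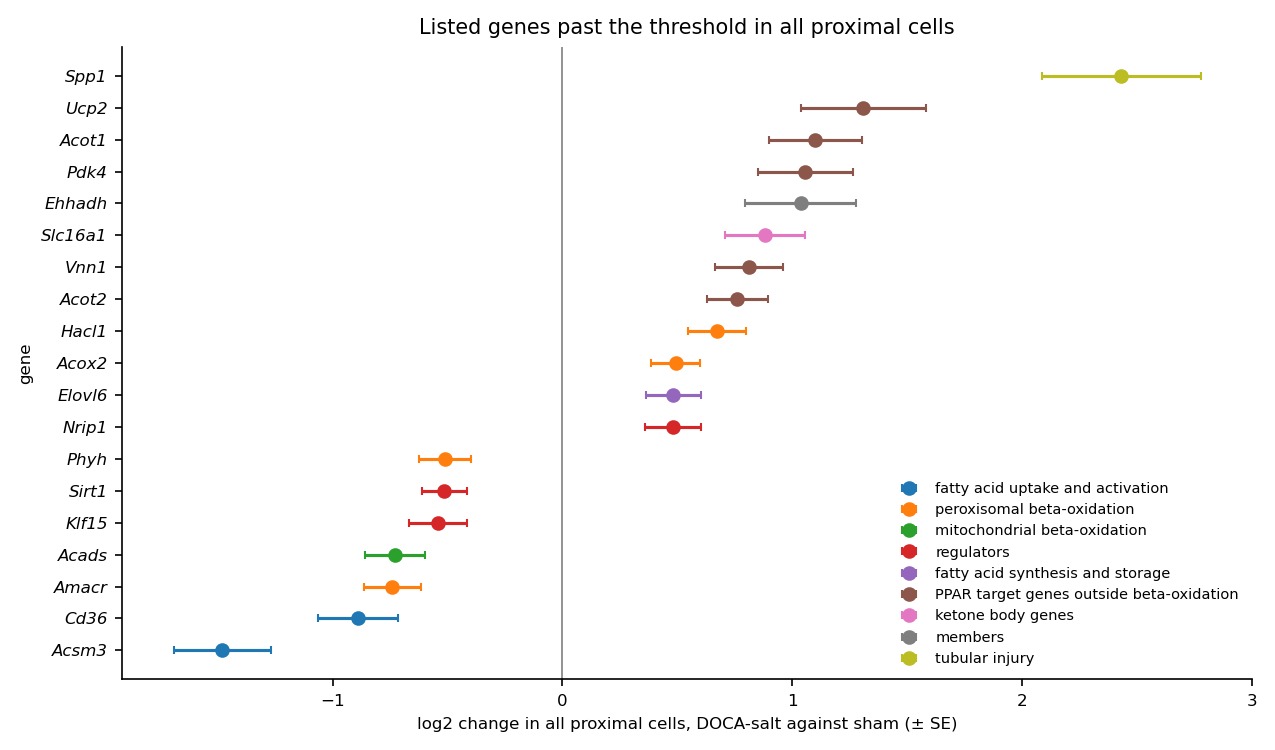
Log2 changes between DOCA-salt and sham mice in all proximal cells (horizontal axis) of the named genes of the pathway lists and of Ehhadh, coloured by list, with bars for the standard error (3 mice in each group). Spp1 lies highest at 2.43 and Acsm3 lowest at -1.48, and Ehhadh lies at 1.04, between Pdk4 and Slc16a1.

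In the connecting tubule most of these lists had negative medians. Of 21 tested genes of mitochondrial β-oxidation, 9 fell and 0 rose (median log2 change -0.50), among them Acadvl, Hadhb, Echs1 and the electron transfer flavoprotein genes Etfa and Etfb. Of 19 of the peroxisomal list, 8 fell and 0 rose (median -0.59), among them Phyh and the catalase gene Cat, which are not β-oxidation genes. Of 21 of the tricarboxylic acid cycle, 12 fell and 0 rose (median -0.55), among them the 4 succinate dehydrogenase subunits Sdha to Sdhd. The estimated share of free proximal RNA in these cells was 7.37% in sham and 3.99% in DOCA-salt mice, and its part in these falls was not tested. Of 14 genes of glycolysis, 6 fell and 1 rose (median -0.40), and of 16 of fatty acid synthesis and storage, 4 fell and 4 rose (median 0.09). The median of all 9888 tested genes was -0.01, with 11.8% lower and 11.9% higher. With counts scaled by library size only, that median was 0.18, with 739 genes called lower and 1770 higher against 1171 and 1175, and the log2 change of the members called was -1.36 for Ppargc1a, -0.80 for Acadm, -0.71 for Cpt1a and -0.50 for Hadha, each still past the threshold. The list counts depended on the choice of cells. With types from each cell's own markers, 390 genes were called lower and 487 higher of 10383. There 1 gene fell in mitochondrial β-oxidation, 1 in the peroxisomal list, 0 in the tricarboxylic acid cycle and 1 in glycolysis. The medians were -0.36, -0.29, -0.29 and -0.14. In cells with 20 to 50% mitochondrial UMIs, 159 genes were called lower and 273 higher of 6745, and 1 gene fell in the tricarboxylic acid cycle and 0 in the other 3 of these lists (edgeR). Of the 21 tested genes of mitochondrial β-oxidation, 0 passed in the thick ascending limb or the distal convoluted tubule and 1, Eci2, fell in principal and in intercalated cells.

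Across tubule types the members did not share 1 pattern. Over 18 points, the group means of 9 tubule types in sham and in DOCA-salt mice, log2 levels of Ehhadh and Acaa1b correlated at r = 0.96 and those of Ppara and Ehhadh at 0.86. Ppargc1a correlated with Hadha at 0.86 and with Acadm at -0.77. Of 6716 other genes, those most like Ppara were Rufy3 (r = 0.96), Aldh6a1 (0.95), Gpc4 (0.95), Rabgap1l (0.94) and Tcn2 (0.94), and those most like the mean of the members were Slc25a42 (0.94), Suclg1 (0.93), Vwa8 (0.92), Adhfe1 (0.92) and Sirt3 (0.92). The points share libraries, depth and free RNA, so these values are descriptions only.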

How the data were processed

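Kidney cells of 6 mice were sequenced with 10x Genomics 3′ chemistry (v3.1), so that UMIs mark the 3′ end of an RNA and levels are compared within a gene, not between genes. The deposited values are raw UMI counts per gene and barcode, 1 matrix for each mouse, made by the authors with Cell Ranger (9.0.0 in the submitters' notes, 8.0.1 in the file headers) on GRCm39 and not normalized. Per the study's methods, cells were then analysed in Seurat 4.0.0, and the deposited matrices start at 170 genes and 500 UMIs per barcode.

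Barcodes with over 50% mitochondrial or over 5% hemoglobin UMIs were left out, and the barcodes most like doublets by the Scrublet method were removed (0.8% for each 1000 barcodes). The rest were clustered in scanpy 1.11.5 (2000 variable genes, 30 principal components, 15 neighbours, Leiden resolution 1), giving 32 clusters. Clusters were named from marker genes, and 3 stayed unnamed. Pairs of libraries shared 18 to 41 barcodes. Libraries held 93172739 to 137819127 UMIs in all.

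UMIs were summed for each mouse and cell type and tested with edgeR 4.0.16 (quasi-likelihood test, TMM scaling, filterByExpr) in R 4.3.3. P-values were adjusted by Benjamini-Hochberg over all genes tested in a type, and called at 0.05. Differences of change between types used an interaction term with the mouse as a block. Log2 changes come from these fits and CPM from the sums. The share of free RNA in a type was estimated in each mouse from 4 proximal RNAs (Slc34a1, Kap, Miox and Slc13a1), as their summed level there over that in proximal cells. Shares of cells were compared by exact permutation over mice. All 8 members are given in each type. From lists of pathway genes, those with adjusted p under 0.05 in all proximal cells, at least 20 CPM on average and no overlap between groups are named, up to 12 in each direction, as are the 5 genes most like Ppara and most like the mean of the members. The members and lists were chosen with earlier results of these data known. Scripts were tested on simulated data.

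Alternatives were DESeq2 1.42.0, other scalings, no filter on low counts, mitochondrial genes left out, at most 20% mitochondrial UMIs, no doublet removal, Leiden resolution 2, types from each cell's own markers, clusters of low UMI counts left out, a replicate block and leaving out each mouse. Cells with 20 to 50% mitochondrial UMIs, the addition of the unnamed C3-led cluster and the cycling tubule cluster, the comparison of S2/S3-like with S1-like cells, of types other than proximal with the thick ascending limb, and of cells by mitochondrial share were added after seeing the data. Sequences were read from GRCm39 at transcript starts of GENCODE vM39.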

Additional observations from a re-analysis of the deposited data

Results flagged for a closer look

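The DOCA-salt change of a member differed between groups of cells, by the interaction test, in 20 cases, each given here as the difference in log2 change. They come from tests of the 8 members in 8 comparisons, in which 1.69 to 16.2% of all tested genes were called. With a mouse left out in turn, 90 of 120 values of these differences stayed past the threshold. Proximal cells exceeded the thick ascending limb for Ehhadh by 1.10 and for Cpt2 by 0.54, and the Ehhadh level in the thick ascending limb was about that of free RNA. S3-like cells exceeded S1-like cells for Ppargc1a by 1.57. S2/S3-like minus S1-like cells gave 0.62 for Ppargc1a, 0.56 for Ppara, 0.30 for Hadha, -0.25 for Acadm, -0.27 for Cpt2 and -0.37 for Acaa1b. Against the thick ascending limb, the difference in the distal convoluted tubule was -0.66 for Ppargc1a and -0.41 for Hadha. In the connecting tubule it was -1.50 for Ppargc1a, -0.95 for Acadm, -0.79 for Hadha and -0.67 for Cpt1a. In principal cells it was -0.85 for Ppargc1a, and in intercalated cells -0.60 for Ppargc1a and 0.56 for Ppara. Proximal cells with at most 20% mitochondrial UMIs exceeded those with 20 to 50% by 0.95 for Ehhadh and 0.44 for Ppara.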

How the results depend on the processing

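Counts of members called depended on the choice of cells and mice. In all proximal cells the 1 call became 0 with a replicate block, 0 in cells with 20 to 50% mitochondrial UMIs and 0 with the unnamed C3-led and the cycling clusters added, and ran from 0 to 1 with each mouse left out. In the proximal segments the 4 calls became 0 with the replicate block, 0 in cells with 20 to 50% mitochondrial UMIs and 2 with types from each cell's own markers, and ran from 0 to 4 with each mouse left out. In the other tubule types the 7 calls became 11 without the filter on low counts, 1 in cells with 20 to 50% mitochondrial UMIs and 2 with types from each cell's own markers, and ran from 5 to 13 with each mouse left out, the highest without sham mouse 2, where Acaa1b was called in 5 types. Over all tubule cells the 1 call became 0 with the replicate block, 0 in cells with 20 to 50% mitochondrial UMIs, and 0 to 1 with each mouse left out. The 2 differences between proximal and thick ascending limb cells became 1 at or under 20% mitochondrial UMIs, 0 with types from each cell's own markers and 0 without doublet removal, and 1 to 2 with each mouse left out. The 1 difference between S3-like and S1-like cells became 0 at or under 20% mitochondrial UMIs, 0 without doublet removal, and 0 to 1 with each mouse left out. The 2 members whose shares of proximal cells did not overlap became 0 without thinning. The causes were not tested. No called change of a member, list gene or difference reversed under any alternative run. For the 13 member calls, 116 of 147 values under other settings and 49 of 78 with a mouse left out stayed past the threshold. Of 75 uncalled member changes, 37 changed sign and 8 were called under some alternative. Scaling by library size only moved the median log2 change of all genes by over 0.1 in the distal convoluted tubule, to 0.14 (183 lower and 787 higher, against 291 and 472), in the connecting tubule, to 0.18, and in S3-like cells, from -0.03 to 0.10 (5 lower and 24 higher, against 6 and 12), and gave 461 lower and 1226 higher genes against 652 and 1065 in S2/S3-like cells. The replicate numbers did not pair the mice: deviations of same-numbered mice in all proximal cells correlated at -0.28, -0.72 and -0.36. Those of differently numbered mice ran from -0.52 (sham mouse 1 with DOCA-salt mouse 3) to 0.59 (sham mouse 1 with DOCA-salt mouse 2). What these mice share across the groups was not tested. At the main resolution no proximal cluster was led by injury markers, so leaving such clusters out gave no value. The S1-like cluster with C3 and Spp1 among its leading genes at Leiden resolution 2 was not left out in any fit. Precision is limited by 3 mice in each group, and in S3-like and connecting tubule cells also by the number of cells.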

Other observations

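The 3 unnamed clusters, among them the one led by C3 and Wt1 with Havcr1 among its 10 leading genes, held 0.671% of the Ehhadh UMIs in sham and 3.72% in DOCA-salt mice, 0.801% and 5.99% of those of Ppara, and 1.21% and 6.09% of those of Ppargc1a. The unnamed clusters do not come evenly from the mice, and these shares move with their cell numbers.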
